A study of Homo sapiens with 6 samples.

Results

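The potassium channel genes of Meg-01 cells were taken as all protein-coding genes of the count table whose identifier belongs to a symbol starting with KCN. This rule used gene names and no measured value, and it found 96 genes among 58735 in the table. Of these, 38 had at least 10 counts in at least 3 libraries and entered the test (39.6%), against 65.0% of the 19831 protein-coding genes. The other 58 genes were not tested, and 15 of them had no count in any library. Members are given below in the classes that their symbols denote.

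Meg-01 is an established human megakaryoblastic cell line, a model of the precursors of platelets. RNA was sequenced from 3 libraries of untreated cells (control) and 3 libraries of cells kept in 500 µM sodium propionate (C3), a salt of a short-chain fatty acid that gut bacteria make, for 48 h as the labels state. The methods of the study name 24 h and 48 h, and its legend calls the libraries technical replicates, so that p-values here measure the spread between libraries of a single cell line and need not cover independent cultures. All cells grew in the same serum-containing medium, and the controls carried no added agent. The labels give no culture time for the controls, so a difference in time could not be told apart from the treatment. Library totals were between 16159449 and 22821722 counts. Beyond sampling noise, control replicate 3 and C3 replicate 1 differed from the other libraries of their groups more than those differed from each other (chi-square per degree of freedom 5.26 and 8.17 against 2.42 in control, 6.72 and 7.58 against 2.94 in C3). Of 16 megakaryocyte markers, 13 were tested and none was called higher, while GP1BA and TUBB1 were called lower (1.47% of all tested genes were). Of the 13, 6 had a positive log2 fold change. ITGB3 (0.34, adjusted p = 0.033 by edgeR) and SELP (0.15, adjusted p = 0.095) had all C3 libraries above all controls without being called. NFE2 (-0.38, adjusted p = 1.9e-04 by edgeR) had all C3 libraries below all controls and was not called either. The same held for PPBP (-0.82, adjusted p = 0.18), with means of 17.2 normalised counts in control and 9.57 after C3. VWF (-0.74, adjusted p = 0.063) was lower with groups that overlapped. The summed level of the markers was 29566 to 31076 normalised counts in control and 28041 to 30372 after C3. ITGA2B (12902 normalised counts in control), FLI1 and GP6 were abundant, whereas PF4 and GP1BB were at 0 in every library. Exon bases shared with other genes were not checked for markers, so a 0 there need not mean that no transcript was present.

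Potassium channels let potassium leave the cell along its gradient and so hold the membrane potential negative, which in turn sets the driving force for calcium entry. Voltage-gated pore subunits (KCNA, KCNB, KCNC, KCND, KCNH, KCNQ) open on depolarisation, and KCNN and KCNMA channels open with calcium. KCNJ inward rectifiers pass inward current more easily than outward current, and KCNK tandem-pore channels leak. In platelets and megakaryocytes, KCNA3 and the Gardos channel KCNN4 are the channels known best, and a calcium rise is a step of platelet activation.

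Per length of merged exons, few members carried most of the signal. KCNH2, the hERG channel of the cardiac action potential, had 791, 738 and 681 normalised counts per kb in the control libraries and 834, 782 and 775 in the C3 libraries. KCNK5, an acid-sensitive leak channel, had 844, 765 and 750 in control and 724, 745 and 748 after C3, and it is named here after its values were seen. KCNK6, another leak channel, had 615, 596 and 587 in control and 689, 668 and 732 after C3. KCNH2 and KCNK5 overlapped in control, and both lay above KCNK6 in every control library. KCNK17, also named after its values were seen, followed with 194 in control and 190 after C3, next to KCNN4 with 176 and 151. The order then ran over KCNQ5 (126 and 101) and KCNG1 (51.3 and 60.7) to the least abundant tested member, KCNJ6, with 0.490 and 0.457 normalised counts per kb. Merged exons count every isoform in the annotation, so that a gene with long rare exons such as KCNMA1 (39437 bases) is placed too low on this scale. In normalised counts, KCNH2, KCNK6, KCNK5 and KCNQ5 together held between 73.6% and 76.1% of all counts on the 96 genes. The 96 genes summed to between 906 and 996 CPM in control and between 990 and 1030 CPM after C3 with TMM scaling, ranges that overlap. On library totals alone they summed to between 875 and 981 CPM in control and between 1021 and 1045 CPM after C3, ranges that do not overlap.

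**Figure D1:**
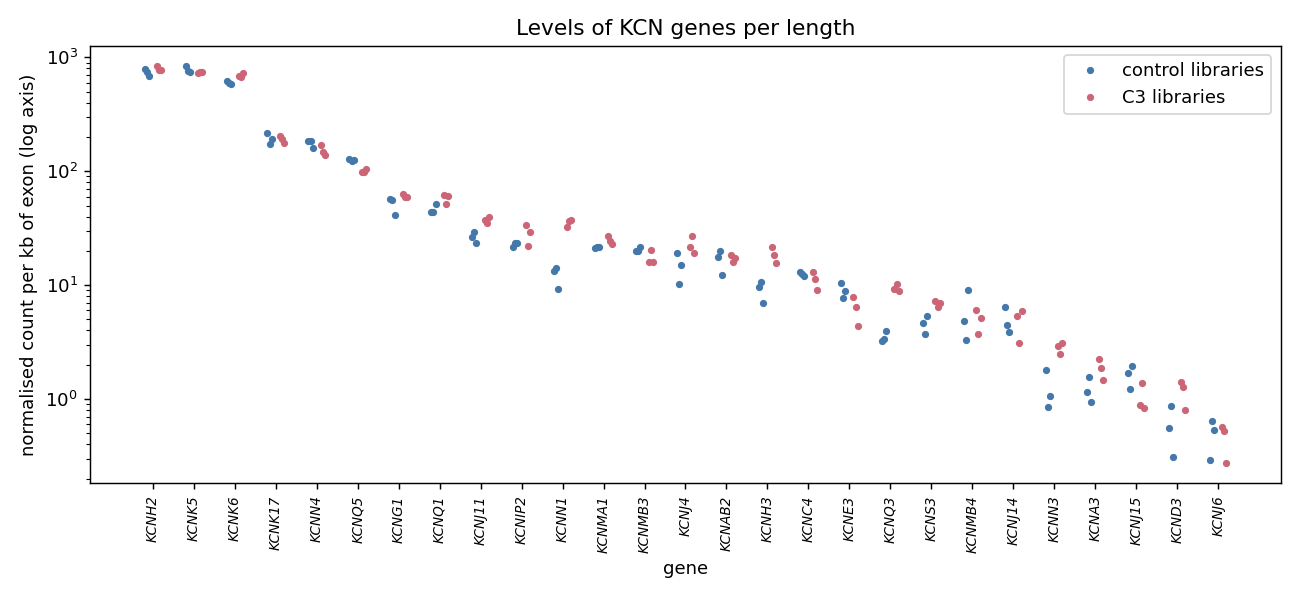
Normalised counts per kb of merged exon (log axis) of 27 tested KCN genes, 1 point per library, control in blue and C3 in red, ordered by the mean over all libraries. KCNH2, KCNK5 and KCNK6 stand above all others, and KCNN1 has its C3 libraries well apart from its control libraries.

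After C3, 6 of the 38 tested members were called higher and 0 were called lower (edgeR, adjusted p below 0.01 and fold change above 1.3). Among them were KCNN1, KCNQ3, KCNH3, KCNJ11 and KCNN3. The 6 make up 15.8% of the tested members, against 5.05% of all 15078 tested genes called higher and 1.47% called lower. All 6 had mean normalised counts between 22.96 and 158.8, and among the 27 members with a mean under 200 the called share was 22.2%, against 6.31% of all tested genes under that level. None of the 11 members above 200 was called. All 6 called members had at least 10 counts in every library. At an unadjusted p under 0.05, 13 members were higher and 2 lower in the edgeR fit, where 16.8% and 15.3% of all tested genes were. In 12 members (31.6%) the lowest C3 library exceeded the highest control library, against 17.5% of all tested genes, and in 2 (5.26%, KCNQ5 and KCNK5) the C3 libraries all fell short of the controls, against 16.9%. The median log2 fold change was 0.20 over the members and 0.0021 over all tested genes. For the members it ran from 0.103 without control replicate 3 to 0.249 without C3 replicate 2. Among genes with a mean under 200 the median was 0.27 for the members and 0.11 for all.

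The count of members called higher rested in part on single libraries. It was 3 without control replicate 3 and 3 without C3 replicate 3, and KCNN1, KCNQ3 and KCNH3 were called in all 17 alternatives that used the same thresholds. DESeq2 on all genes called the same 3 and none lower. Transcript GC content was 61.0% at the median of the called members, 53.9% of the tested members and 47.9% of all tested genes, and with a correction for GC content (chosen after seeing the data) KCNJ11 lost its call (log2 fold change 0.41, adjusted p = 0.012 by edgeR) while the other called members kept theirs. Of 5 neuron markers, 4 were tested. RBFOX3 (a log2 fold change of 0.71) and SLC17A7 (1.94) rose with the treatment, where 5.05% of all tested genes were called higher. GAD1 (0.40) and SNAP25 (-0.12) were not called. SLC17A7 reached the count filter with the help of its C3 libraries, since only control replicate 3 had 10 counts or more. Their summed level was 277 to 290 normalised counts in control and 397 to 438 after C3, and SYT1 was at 0 in every library. A part of these markers in the change of the channel genes was not tested, and in bulk RNA a shift in the kinds of cell and a shift in RNA per cell cannot be told apart.

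**Figure D2:**
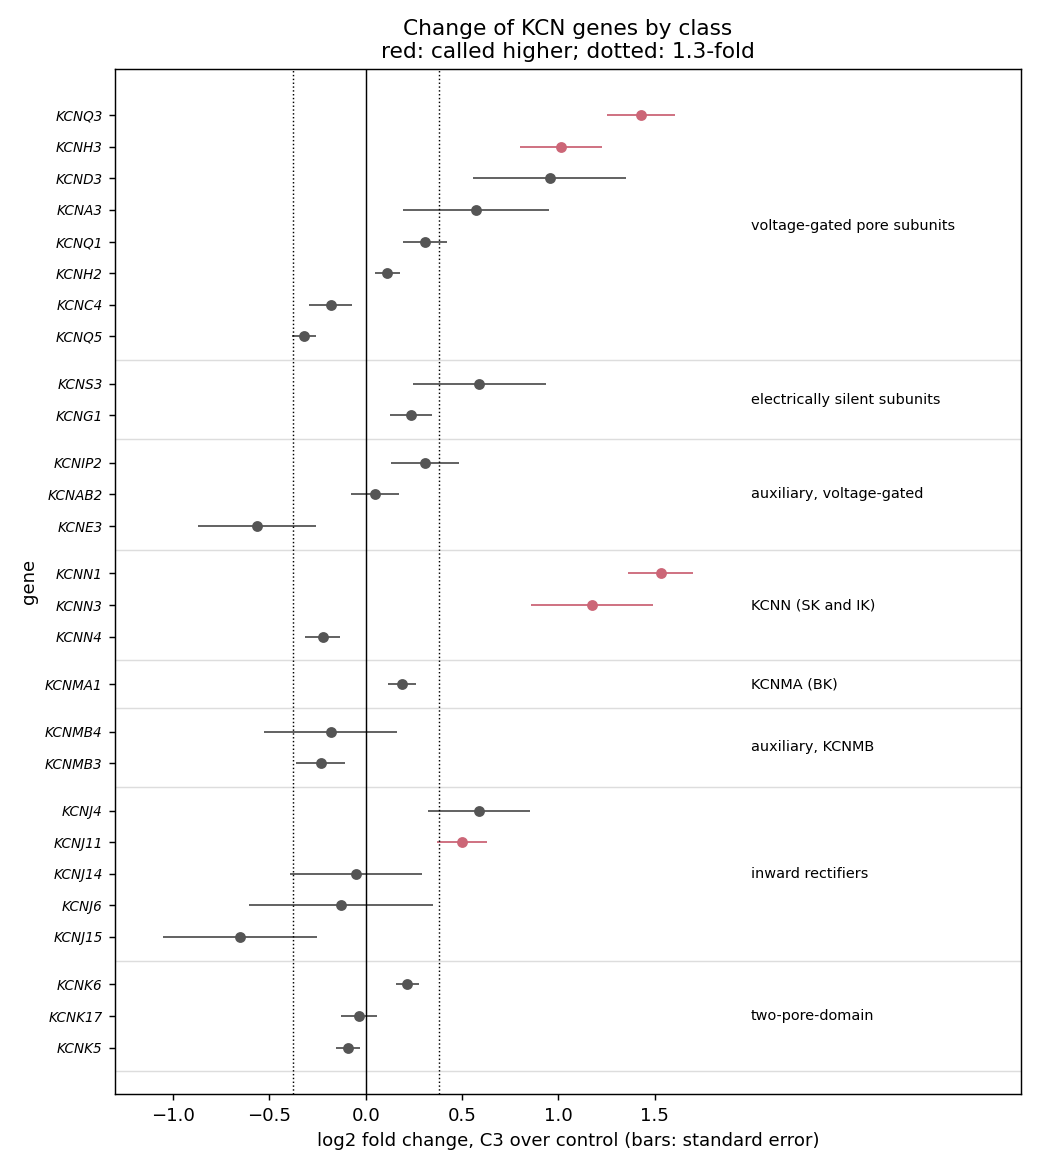
Log2 fold change, C3 over control, of 27 tested KCN genes (points), grouped by class, with dotted lines at 1.3-fold. Bars are standard errors derived from the F statistic of the edgeR fit. The 5 called members plotted (red) lie among the voltage-gated pore subunits, the KCNN genes and the inward rectifiers.

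Among calcium-activated channels, 3 of 4 KCNN genes reached the filter. Of these, 2 rose while KCNN4 did not pass, where 5.05% of all tested genes were called higher. KCNN1 (ENSG00000105642; GRCh38, chromosome 19, bases 17951293 to 18000085, plus strand) encodes SK1, a small-conductance channel that opens when calcium binds its calmodulin. It had 56.8, 60.4 and 39.4 normalised counts in the control libraries and 138, 157 and 161 in the C3 libraries. The lowest C3 library was more than 2-fold above the highest control library, and control replicate 3 was the lowest of all. The mean went from 52.2 ± 11.2 to 151.8 ± 12.4 (SD, n = 3 each), a 2.89-fold rise (log2 fold change 1.53, SE 0.17, 95% interval 1.20 to 1.87, adjusted p = 4.5e-07 by edgeR).

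The other KCNN genes followed no common direction. KCNN3, the small-conductance channel SK3 (ENSG00000143603; chromosome 1, bases 154697455 to 154870281, minus strand), had 24.5, 11.7 and 14.3 normalised counts in control and 39.8, 33.5 and 42.3 after C3. The groups did not overlap, and control replicate 1 stood nearest to the C3 libraries. Its log2 fold change was 1.18 (SE 0.31, adjusted p = 0.0091 by edgeR). That call was lost in 7 of 16 alternatives, with an adjusted p of 0.062 without control replicate 2, 0.036 without control replicate 3, 0.017 without C3 replicate 1 and 0.048 without C3 replicate 3. KCNN4, the intermediate-conductance Gardos channel of red cells and platelets (ENSG00000104783; chromosome 19, bases 43766533 to 43780976, minus strand), had 578, 571 and 498 in control and 528, 460 and 431 after C3. C3 replicate 1 lay within the control range, and the log2 fold change of -0.22 (SE 0.089) did not pass (adjusted p = 0.079 by edgeR). With the GC correction it was -0.33 (adjusted p = 0.0012), past the p threshold but inside the 1.3-fold limit, so that KCNN4 was not called there either. KCNN2 had at most 3 counts in a library.

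KCNN1, which was called higher, and KCNN4, the most abundant gene of the subfamily, which was not called, lie on the same chromosome, and the sequences around their annotated starts are shown side by side. They are windows of 300 bases that begin upstream of the start and end shortly after it, 5′ to 3′ on the strand of the gene, from RefSeq on GRCh38.p14, and capitals mark GC boxes, written GGGCGG or CCGCCC on either strand. KCNN1 has 2 annotated starts in the table and KCNN4 has 1, and which start these cells use was not measured.
KCNN1, chr19:17966857-17967156, plus strand: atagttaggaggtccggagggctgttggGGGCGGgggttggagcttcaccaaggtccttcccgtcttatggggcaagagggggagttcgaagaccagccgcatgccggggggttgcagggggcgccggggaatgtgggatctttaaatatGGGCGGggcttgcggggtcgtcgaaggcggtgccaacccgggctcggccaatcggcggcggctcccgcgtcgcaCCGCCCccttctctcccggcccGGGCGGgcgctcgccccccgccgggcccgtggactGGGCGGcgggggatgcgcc
KCNN1, chr19:17952007-17952306, plus strand: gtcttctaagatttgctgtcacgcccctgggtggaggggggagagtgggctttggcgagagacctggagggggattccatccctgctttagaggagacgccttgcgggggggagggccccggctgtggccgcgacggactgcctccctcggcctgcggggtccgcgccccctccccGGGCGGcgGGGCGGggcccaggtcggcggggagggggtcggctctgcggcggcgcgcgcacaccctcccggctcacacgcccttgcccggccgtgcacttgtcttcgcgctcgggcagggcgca
KCNN4, chr19:43780924-43781223, minus strand: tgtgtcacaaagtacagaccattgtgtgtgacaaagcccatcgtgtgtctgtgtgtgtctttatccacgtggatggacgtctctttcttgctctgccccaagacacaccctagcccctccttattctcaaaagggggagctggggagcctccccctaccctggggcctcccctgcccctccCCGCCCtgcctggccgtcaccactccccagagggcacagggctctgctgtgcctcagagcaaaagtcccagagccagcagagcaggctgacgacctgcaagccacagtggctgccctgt

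The first KCNN1 window held 5 GC boxes and 33 CpG dinucleotides, the second held 2 GC boxes and 32 CpG, and the KCNN4 window held 1 GC box and 6 CpG. The median was 14 CpG over all 35116 windows of the table and 25 over those of tested genes, and 44.95% of them held a GC box. Of the 96 members, 72 matched 110 windows, of which 50.9% held a GC box. That share was 50% in members that reached the count filter and 51.7% in those below it, and 64.7% over the windows of all tested genes. The letters TATAAA or TTTATA stood in 8.18% of the members' windows, in 6.47% of the windows of tested genes and in 11.5% of all windows, and in none of the windows of KCNN1, KCNN3 and KCNN4. These matches describe the windows and not bound factors.

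Within the KCNN subfamily, the mixture moved towards KCNN1. Per kb of exon, KCNN4 made up 92.9 ± 0.874% of the KCNN signal in control and 79.6 ± 2.86% after C3, and KCNN1 made up 6.42 ± 0.885% and 18.9 ± 2.74% (SD, n = 3 each). The log2 ratio of KCNN1 to KCNN4 was -3.80, -3.69 and -4.11 in the control libraries and -2.39, -2.00 and -1.87 in the C3 libraries. KCNN4 stayed the main transcript in every library. The ratio differed by 1.78 on the log2 scale with no overlap (exact two-sided permutation test, p = 0.1, the smallest that 3 against 3 libraries allow), and it is a restatement of the changes given above rather than a further measure.

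The large-conductance channel KCNMA1 (BK) opens with calcium and voltage together. It had 841, 859 and 856 normalised counts in control and 1057, 960 and 903 after C3, all C3 libraries above all controls, and its log2 fold change of 0.19 did not pass (adjusted p = 0.066 by edgeR). Its beta subunits, which tune its response to calcium, were tested for 2 of 4 genes, with log2 fold changes of -0.23 for KCNMB3 and -0.18 for KCNMB4, the latter between -0.46 and 0.28 over single libraries left out. KCNMB3 shares 38.0% of its exon bases with genes on the other strand, and since the strand setting of the counting is not given, reads there cannot be assigned. The sodium-activated KCNT genes and KCNU1 had at most 6 counts in a library.

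All 5 KCNQ genes reached the filter. Its products form slow channels that stay open below the firing threshold, and KCNQ3 and KCNQ5 contribute to the M current of neurons. KCNQ3 (ENSG00000184156) had 41.1, 42.4 and 50.2 normalised counts in control and 117, 130 and 112 after C3. Every C3 library was more than 2-fold above every control library. The mean rose from 44.6 ± 4.87 to 119.8 ± 9.29 (SD, n = 3 each), a log2 fold change of 1.43 (SE 0.18, adjusted p = 2.3e-06 by edgeR).

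KCNQ5, the most abundant of the subfamily (ENSG00000185760; chromosome 6, bases 72621792 to 73198853, plus strand), had 1444, 1407 and 1433 normalised counts in control and 1120, 1120 and 1190 after C3. The groups did not overlap, and each varied little among its libraries. Its log2 fold change of -0.32 (SE 0.064) had an adjusted p of 8.5e-04 by edgeR but stayed inside the 1.3-fold limit, so KCNQ5 was not called. It was the single member with a lower level past the p threshold. Other genes on the opposite strand share 8.22% of its exon bases.

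KCNQ1, a cardiac and epithelial channel, had 197, 197 and 230 normalised counts in control and 273, 230 and 270 after C3. The groups overlapped at their edge, and the log2 fold change of 0.31 (SE 0.11) did not pass (adjusted p = 0.056 by edgeR). Per kb of exon, KCNQ5 made up 60.6 ± 0.345% of the KCNQ signal in control and 49.0 ± 0.874% after C3. KCNQ1 made up 22.5 ± 1.94% and 28.1 ± 2.23%. KCNQ3 made up 1.68 ± 0.176% and 4.59 ± 0.453%, so that it was still a small part.

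**Figure D3:**
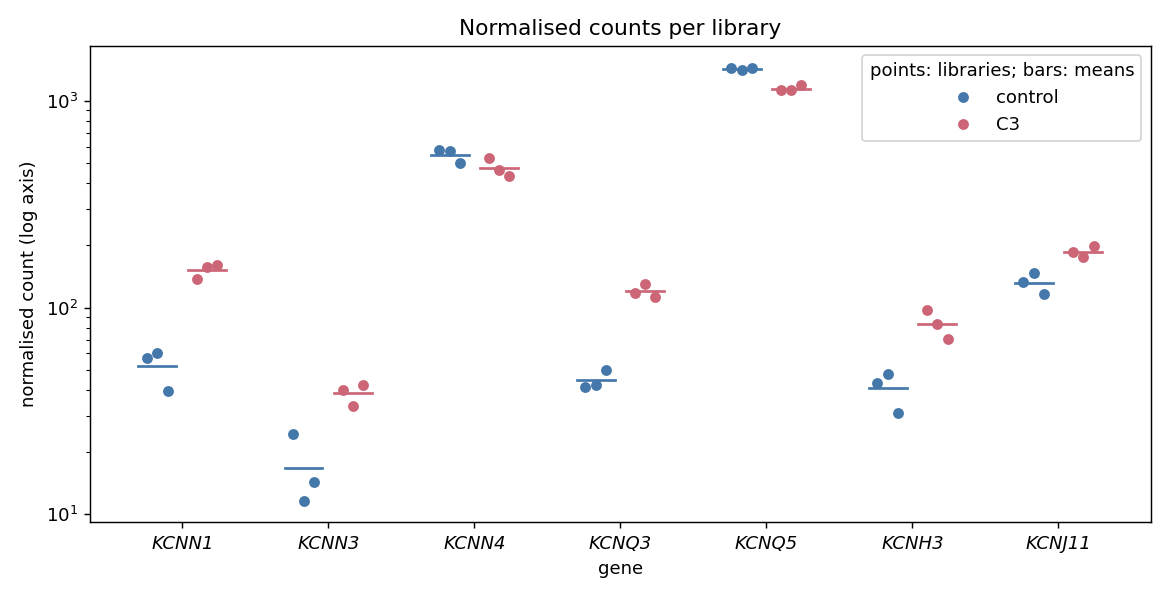
Normalised counts per library (points, log axis) with group means (bars) for 5 called members and for KCNN4 and KCNQ5, control in blue and C3 in red. The groups of KCNN1, KCNQ3, KCNH3, KCNJ11 and KCNN3 do not overlap, KCNQ5 lies lower after C3, and KCNN4 overlaps.

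Outside the KCNQ genes, KCNH3 rose among the voltage-gated pore subunits. KCNH3 (ENSG00000135519; chromosome 12, bases 49539030 to 49558337, plus strand) encodes an EAG-like channel known from the forebrain. It had 43.1, 47.7 and 31.0 normalised counts in control and 96.7, 83.3 and 70.6 after C3. The groups did not overlap, and the C3 libraries spread wider than the controls. Its log2 fold change was 1.01 (SE 0.21, adjusted p = 0.0012 by edgeR), with adjusted p between 2.4e-05 and 0.00997 over the alternatives.

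KCNH2, the member with the highest count, had 5704, 5320 and 4908 normalised counts in control and 6011, 5637 and 5585 after C3. The groups overlapped, and the log2 fold change of 0.11 (SE 0.065) did not pass (adjusted p = 0.25 by edgeR). It was 0.059 without control replicate 3, 0.18 without control replicate 1 and 0.011 with the GC correction without the block. KCND3, which carries transient outward current, had 10.8, 16.97 and 5.97 in control and 27.3, 24.9 and 15.7 after C3, with an adjusted p of 0.093. KCNA3, the channel reported in platelets and lymphocytes, had only 11.8, 15.9 and 9.55 normalised counts in control and 22.8, 19.1 and 14.9 after C3, groups that overlapped (log2 fold change 0.57, adjusted p = 0.32 by edgeR). It was the single KCNA gene of 8 above the filter, and the other 7 had at most 4 counts in a library. KCNC4, which carries a rapidly inactivating current, had a log2 fold change of -0.18, which was -0.039 without C3 replicate 3 and -0.30 without C3 replicate 1. In all, 12 of 30 voltage-gated pore subunits were tested, 3 rose, where 5.05% of all tested genes were called higher, and their median log2 fold change was 0.44.

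Of 16 inward rectifiers, 5 reached the filter and KCNJ11 was called higher, where 5.05% of all tested genes were. KCNJ11 (ENSG00000187486; chromosome 11, bases 17365172 to 17389331, minus strand) encodes the pore of channels that ATP closes, which couple metabolism to membrane potential in beta cells and muscle. It had 132, 146 and 116 normalised counts in control and 186, 175 and 198 after C3. The groups did not overlap, and C3 replicate 2 stood nearest to the controls. Its log2 fold change was 0.50 (SE 0.13, adjusted p = 0.0078 by edgeR). It was called in 8 of 17 alternatives, and the adjusted p ran from 0.011 to 0.058 without either control replicate 1, 2 or 3 or C3 replicate 1 or 3. KCNJ4 had 39.2, 21.2 and 31.0 in control and 44.4, 55.5 and 39.2 after C3, nearly touching, with an adjusted p of 0.12. Neither KCNJ15 (-0.65), KCNJ6 (-0.13) nor KCNJ14 (-0.052), whose value is the class median, was called. With single libraries left out, KCNJ14 ran from -0.25 to 0.21 and KCNJ6 from -0.40 to 0.18.

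KCNK, the tandem-pore leak channels, held the most abundant transcripts beside KCNH2, and 7 of 15 genes were tested with none called. KCNK6 had 3791, 3674 and 3620 normalised counts in control and 4250, 4121 and 4512 after C3. All C3 libraries were above all controls, by a log2 fold change of 0.22 (SE 0.062, adjusted p = 0.014 by edgeR), which met neither threshold. KCNK5 had 3194, 2894 and 2837 in control and 2738, 2817 and 2829 after C3, just below, with a log2 fold change of -0.09. The 95% interval for KCNK5 was -0.21 to 0.033, inside the 1.3-fold limit of 0.38 either way. Over the class the log2 fold changes ran from -0.14 to 0.27 with a median of 0.0012.

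Of 13 auxiliary genes of voltage-gated channels, 6 were tested and none was called. KCNAB2, a cytoplasmic beta subunit of KCNA channels, had 304, 341 and 213 normalised counts in control and 320, 276 and 296 after C3, and its log2 fold change of 0.046 turned negative without control replicate 3 (-0.12), without C3 replicate 1 (-0.0027) and under the corrections for GC content. KCNIP2, a calcium-binding partner of KCND channels, had 0.31, and KCNE3, a single-span partner of KCNQ1, had -0.57 with an adjusted p of 0.21 by edgeR. With single libraries left out, KCNIP2 ran from 0.18 to 0.46 and KCNE3 from -0.76 to -0.34. On the other strand, other genes share 13.1% of the exon bases of KCNIP2 and 16.9% of those of KCNE3. Of 10 electrically silent subunits, which act only within channels of other families, KCNG1 and KCNS3 were tested. KCNG1 had 309, 300 and 224 in control and 341, 322 and 323 after C3 (log2 fold change 0.23, adjusted p = 0.14 by edgeR). That fold change ran from 0.11 without control replicate 3 to 0.33 without control replicate 1. KCNS3 had 14.7, 11.7 and 16.7 in control and 22.8, 20.1 and 22.0 after C3 (0.59, 0.25). Both groups of libraries were apart in KCNG1 and in KCNS3, by less than 1.3-fold at their nearest.

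Of the 58 members below the filter, 43 had a count in at least 1 library, and the highest single value was 17 counts. Where a gene was at 0 throughout, a count of 0 over the 6 libraries allows up to 3 counts, or 0.0269 CPM, for counting error only. These 15 genes comprised 5 voltage-gated pore subunits, 4 KCNK genes, 3 inward rectifiers, 2 silent subunits and KCNU1. Of the 15, 5 share exon bases with another gene (up to 61.9% on the same strand and 35.7% on the other), where reads may not have been assigned, so the limit is given for the other 10 only. Near-identical gene copies, as exist among the inward rectifiers, can lose reads in the same way, so the limit may not hold for inward rectifiers among the 10.

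Of 28 genes outside the KCN symbols that work with potassium channels, 19 were tested and 2 rose, where 5.05% of all tested genes were called higher. TMEM38A, a potassium-permeable channel of the sarcoplasmic reticulum, went from 14.3 ± 1.02 to 44.5 ± 5.96 normalised counts (SD, n = 3 each; log2 fold change 1.64, adjusted p = 3.1e-04 by edgeR). NEDD4L, a ubiquitin ligase that acts on KCNQ channels among others, rose by 0.39 on the log2 scale, and none fell. CALM3, a gene for the calmodulin that gates KCNN channels and the most counted of the list, had -0.096 on that scale (adjusted p = 0.36). The median over the list was 0.10.

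Of 36 pumps and cotransporters that move potassium, 21 were tested and 3 rose, where 5.05% of all tested genes were called higher. FXYD7, a regulator of the sodium pump known from brain, had 4.90, 1.06 and 8.36 normalised counts in control and 31.9, 29.7 and 25.9 after C3 (log2 fold change 2.604). It reached the count filter through its C3 libraries alone, so its call is not independent of the filter. SLC24A4, a sodium-calcium exchanger that also carries potassium, rose by 1.43, and FXYD6, another regulator of the pump, by 0.96. The list's median was 0.044.

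Genes listed for calcium entry, together with calcium pumps, inositol trisphosphate receptors and the cation channel TRPM4, showed both directions. Of 30 genes 28 were tested, 4 rose and 2 fell, beside 5.05% of all tested genes called higher and 1.47% called lower. The inositol trisphosphate receptors ITPR3 (log2 fold change 0.62) and ITPR2 (0.48), the ATP-gated channel P2RX7 (1.07) and the calcium-activated cation channel TRPM4 (0.56) rose. P2RX1, the ATP-gated channel of platelets, fell from 1100 ± 101 to 831 ± 44.4 normalised counts (log2 fold change -0.41), and TRPV2 fell by 0.50. The calcium pump ATP2A3, the most counted of the list, had -0.033. The median was -0.010 over this mixed list, which is not a median of entry channels alone.

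Over all 15078 tested genes, 761 were called higher and 222 lower. Of 26 calcium channel subunit genes (CACN) 13 were tested, and CACNA1G, a T-type calcium channel that opens near rest, had 61.7, 70.0 and 60.9 normalised counts in control and 212, 189 and 200 after C3 (log2 fold change 1.64, adjusted p = 1.0e-08 by edgeR). CACNB4 (0.98) and CACNG8 (0.81), a beta and a gamma subunit, also rose, none fell, and the median was 0.29, with 0.15 for the most counted, CACNA2D4. Of 14 sodium channel genes (SCN) 4 were tested, 1 rose and none fell, SCN9A, the most counted, had 0.015, and the median was 0.34. All 17 of these tested genes and the 38 KCN genes were fitted and adjusted together with all tested genes, and no difference between the families was tested.

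Marker lists of other lineages moved in both directions or not at all, and their part in the changes above was not tested. Of 5 T cell markers CD4 had 5056 normalised counts in control and 4716 after C3 while CD3D, CD3G and CD8A had means of at most 1.48 and CD3E, not called, had 9.39 and 15.6, and the summed level was 4859 to 5201 in control and 4645 to 4913 after C3. The summed level of 4 B cell markers was 64.7 to 79.3 and 64.3 to 88.8, with MS4A1 at 0. For 6 monocyte and neutrophil markers it was 813 to 859 and 622 to 635, LYZ fell, and FCGR3A was at 0. For 4 erythroid markers it was 256 to 273 and 277 to 346, and for 5 muscle markers 23.9 to 43.5 and 34.5 to 45.5, with no gene of either list called and with TNNT2 and MYH7 at 0.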

How the data were processed

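RNA libraries of Meg-01 cells, 3 control and 3 C3, were analysed from the deposited gene counts. Per the labels and methods, the authors made these raw counts, without normalization, from fastp-trimmed reads that STAR (2.6.1d) had placed on GRCh38/hg38, with featureCounts (1.5.0-p3). The strand setting is not given in the sources used. Symbols and exon lengths were taken from GENCODE 44.

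The test took genes that reached 10 counts in 3 or more libraries (15078 genes with 99.87% of all counts). TMM factors scaled the libraries, and the quasi-likelihood test of edgeR (version 4.0.16 in R 4.3.3) compared the groups, without a replicate block, with Benjamini-Hochberg adjustment over all tested genes. Calls needed both an adjusted p-value below 0.01 and more than a 1.3-fold difference, as in the study. Normalised counts are scaled to the mean effective library size. The common coefficient of variation between libraries was 6.21%. Limits for a count of 0 cover counting error only. Some genes are not reported here by name. A further 27 rows with KCN symbols that are not protein-coding were left out.

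The members, lists, tests and alternatives were chosen with earlier results of these data known, so neither the members nor the related lists are independent evidence. Tested members were named where called, where p was below 0.05 unadjusted, where highest in their subfamily, or as KCNA3, KCNN4, KCNMA1 or KCNAB2. KCNK5, KCNK17, KCNMB4, KCNJ6, KCNJ14, KCNJ15 and the members below the filter given by name were added after their values were seen. The alternatives were DESeq2 (1.42.0), limma-voom (limma 3.58.1), other scalings, filters and thresholds, a GC correction, and each library left out. The fit was tested on simulated data.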

Additional observations from a re-analysis of the deposited data

How the results depend on the processing

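The count of members called higher was 3 with DESeq2 on all genes and 3 with edgeR's glmTreat at an adjusted p of 0.05, and it ran from 3 to 5 when single libraries were left out. Without a fold limit, 1 member was called lower (KCNQ5), at an adjusted p of 0.05 as well as 0.01. The median log2 fold change of the tested members was 0.27 with library size alone, 0.153 with the replicate block and GC correction together and 0.151 with the GC correction without the block, and it ran from 0.103 (without control replicate 3) to 0.249 (without C3 replicate 2) over the libraries left out. KCNAB2 turned to -0.039 with the replicate block and GC correction and to -0.057 with the GC correction alone, and ran from -0.119 to 0.191 over the libraries left out. The number of members reaching the filter was 66 at 1 count and 21 at 50 counts in 3 libraries.

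The numbers of the replicates did not pair the libraries (correlations of deviations 0.021, -0.047 and 0.03), and with the replicate block 7 members were called higher. The GC correction without the block and the thinning of libraries to the smallest total were chosen after seeing the data. Over 23 named members, 357 recomputed fold changes kept their direction and side of the threshold, 21 lost it, 2 passed it and 4 turned. The cause of these changes was not tested, beyond the smaller number of libraries where 1 was left out. Members near 10 counts are limited by counting error.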
